A study of Mus musculus with 4 samples.

Results

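The 9 genes described here are the effector cytokines Ifng, Tnf, Csf2, Il2, Lta, Ltb and Il10 and the 2 chains of the interferon gamma receptor, Ifngr1 and Ifngr2. They were chosen by name, and all 9 were found by symbol among the 32285 genes of the CD45 sort and among the 31053 genes of the T cell sort. The data are droplet-based single-cell RNA sequencing (10x 3' libraries, in which each captured molecule is counted once by its unique molecular identifier, UMI) of immune cells from mouse melanomas. The tumor cells were B16-F10 melanoma cells, a single bright clone that makes the fluorescent protein ZsGreen (ZsG) when doxycycline is given. They were injected under the skin of the flank of wild-type C57BL/6 mice, the mice drank doxycycline for 4 days, and the tumors were taken on day 8. A ZsG+ immune cell is one sorted for fluorescence, which comes from material taken up from the tumor cells, and a ZsG- cell is one sorted as below the gate.

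Each of the 4 libraries holds a different sort, so there is 1 library per condition. All CD45+ cells were sorted into ZsG- and ZsG+ cells (CD45 sort), and T cells (CD45+ TCRb+) were sorted into ZsG- and ZsG+ cells (T cell sort). All 4 conditions share the tumor clone, the mouse strain and the doxycycline, and no source at hand states how old the mice were or how many were pooled for a library. The gate for ZsG+ in the CD45 sort was set on bright cells, while the T cell sort was gated for T cells. By the authors' account most lymphocytes with ZsG therefore fell into the ZsG- library of the CD45 sort. The ZsG- lymphocytes of that sort thus include cells that had taken up tumor material. With 1 library per condition no test can be made. The values in brackets are exact 95% intervals for counting error only (Poisson for levels, Clopper-Pearson for shares, conditional binomial for ratios). They do not cover the spread between mice or libraries. Those for levels and ratios also do not cover the uneven spread of UMIs over cells. Levels are UMIs of a gene per 1000000 UMIs of the same cells (CPM). Shares of cells with a UMI are given after each cell was thinned to 2000 UMIs, which left out 0 to 16 shallower cells of a class, and unthinned beside it.

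Interferon gamma is made mainly by activated T cells and NK cells and acts on cells that carry both receptor chains: Ifngr1 binds the cytokine and Jak1, Ifngr2 brings Jak2, and the signal turns on genes such as Irf1, Cxcl9 and Cxcl10. Tnf, lymphotoxin alpha (Lta) and lymphotoxin beta (Ltb) are ligands of the TNF family, of which Ltb is held at the cell surface in a complex with Lta and acts through the receptor Ltbr. Il2 drives the growth of T cells, Csf2 (GM-CSF) acts on myeloid cells, and Il10 restrains inflammation. In tumors, interferon gamma from lymphocytes raises antigen presentation and the release of chemokines that attract more T cells.

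The promoters of 4 members are shown first, because Ifng and Il2 lay in few cells and Ifngr1 in most and Tnf lay mainly in myeloid cells. The sequences are from RefSeq on build GRCm38.p6, cover the 250 bases before the start of transcription, and are written 5' to 3' on the strand of the gene; capitals mark TATAAA (the TATA box) and TTCNNNGAA (the site bound by STAT factors), both searched on both strands. 8 of the 9 members had an entry.
Ifng (chr10:118440796-118441045, plus strand): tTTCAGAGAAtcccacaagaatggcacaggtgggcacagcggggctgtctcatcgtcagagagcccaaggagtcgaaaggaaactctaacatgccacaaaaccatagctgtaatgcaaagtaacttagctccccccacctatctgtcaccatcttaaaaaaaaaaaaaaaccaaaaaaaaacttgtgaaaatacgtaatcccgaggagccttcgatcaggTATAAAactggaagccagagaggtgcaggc
Il2 (chr3:37125955-37126204, minus strand): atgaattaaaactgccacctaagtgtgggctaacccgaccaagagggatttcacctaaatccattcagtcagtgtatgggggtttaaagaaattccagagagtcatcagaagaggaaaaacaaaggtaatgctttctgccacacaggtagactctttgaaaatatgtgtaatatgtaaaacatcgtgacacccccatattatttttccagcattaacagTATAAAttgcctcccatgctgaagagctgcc
Tnf (chr17:35202008-35202257, minus strand): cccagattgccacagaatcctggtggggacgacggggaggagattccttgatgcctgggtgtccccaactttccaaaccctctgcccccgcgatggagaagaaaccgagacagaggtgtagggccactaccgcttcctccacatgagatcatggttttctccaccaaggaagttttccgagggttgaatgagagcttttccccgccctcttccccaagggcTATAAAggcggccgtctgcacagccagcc
Ifngr1 (chr10:19591699-19591948, plus strand): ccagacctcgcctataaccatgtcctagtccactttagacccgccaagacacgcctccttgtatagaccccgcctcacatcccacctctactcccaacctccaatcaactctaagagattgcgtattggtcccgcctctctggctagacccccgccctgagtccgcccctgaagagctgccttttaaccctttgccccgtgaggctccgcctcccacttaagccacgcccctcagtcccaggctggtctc
TATAAA began 30 bases before the start in Ifng, 31 bases before it in Il2 and 29 bases before it in Tnf, and it was found in 12.4% of all 32851 mouse promoters of this length. The promoter of Ifng also held TTCNNNGAA 249 bases before the start, a motif found in 7.02% of promoters. Lta held that motif 152 and 16 bases before its start and Ltb 172 bases before its start. Lta also held TATAAA, 167 bases before its start. Neither receptor gene held either motif, and Csf2 held neither in the window searched. The Csf2 window, chr11:54249900-54250149 on the minus strand, does not reach the start in another annotation (GENCODE), at 54249667. The bases just before that start were therefore not searched. TGANTCA, the site bound by AP-1 factors, was searched too and lay in none of the entries, against 6.75% of all promoters. Ifngr1 had 11 CG dinucleotides in this window and Ifngr2 had 25, more than 89.3% of promoters. Tnf had 10, Lta 9, Ifng and Ltb 6 each, and Il2 and Csf2 2 each, so Ifngr1 lay close to Tnf and Lta. A match to letters is a description of the window and no evidence that a factor bound there. Ifng and Ifngr1 both lie on chromosome 10 (GRCm38), at 118441046 to 118445892 and at 19591949 to 19610229, and Ifngr2 lies on chromosome 16 at 91547072 to 91565623. Ltb, Tnf and Lta are neighbors on chromosome 17, with 3060 bases between Ltb and Tnf and 1157 bases between Tnf and Lta.

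The libraries held 1136 to 5437 barcodes and 10030971 to 56510578 UMIs, and after filtering 659 to 4699 cells were kept, with a median of 5769 to 9928 UMIs per cell. Any pair of libraries shared 1 to 6 barcodes. In the T cell sort, 289 ZsG- and 1099 ZsG+ barcodes that passed the other filters lay under the limit on CD3 transcripts and were not counted as T cells. In the CD45 sort the classes were T cells (1528 ZsG- and 196 ZsG+), NK and innate lymphoid cells (NK/ILC, 2516 and 113), monocytes and macrophages (257 and 3043), dendritic cells (DCs, 110 and 441), plasmacytoid DCs (pDCs, 241 and 55) and B cells (39 and 1). The defining markers were higher than in the other cells for 6 of 6 in T cells, 7 of 7 in NK/ILC, 13 of 13 in monocytes and macrophages, 5 of 5 in pDCs and 5 of 5 in B cells. DCs were put together from clusters, of which 1, an unnamed cluster led by Hpgd (62 of the 110 ZsG- and 34 of the 441 ZsG+ DCs), has an uncertain label. Its markers were compared only with the other cells of the cluster it was split from, namely DCs and cells mixing DC and macrophage genes. Against those, 5 of 6 markers of T cells, 3 of 7 of NK/ILC, 3 of 5 of DC2 and 0 of 5 of DC1 were raised. Trbc1, a T cell receptor gene, was among its leading genes. Cd3e was 20.9 CPM in all ZsG- DCs and 317 CPM in ZsG- T cells of the CD45 sort. DC values are therefore given with it and without it. ZsG+ lymphocytes also carried more transcripts of macrophages. The sum of Lyz2, C1qa, C1qb, C1qc and Apoe was 50.3 CPM in ZsG- and 393 CPM in ZsG+ T cells of the CD45 sort, 38.9 and 670 CPM in NK/ILC, and 29.7 and 127 CPM in T cells of the T cell sort. In macrophages it was 24727 and 17634 CPM. Lymphocyte transcripts in turn were higher in ZsG- monocytes and macrophages. Gzma was 287 CPM in their ZsG- and 22.0 CPM in their ZsG+ cells, Nkg7 103 and 18.6 CPM, and Trbc2 51.8 and 17.8 CPM. In DCs, with the cluster led by Hpgd, Gzma was 70.6 and 6.96 CPM and Trbc2 101 and 13.2 CPM. In the T cell sort, the name of the combined sample set gives the first barcode suffix to ZsG+ cells and the names of the 2 libraries read the other way. The reading by the set name is used here, and with the other reading every ZsG+ to ZsG- direction of the T cell sort turns round. Under the reading used, the sum of 5 pigment genes of melanoma cells was 4.46 CPM (2.76 to 6.82) in ZsG- and 9.80 CPM (7.54 to 12.5) in ZsG+ T cells of this sort, a value that was not used to assign the libraries.

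Ifng was a product of lymphocytes. In the ZsG- library of the CD45 sort, 12259 Ifng UMIs were counted, of which 91.0% lay in T cells, which were 32.5% of the cells, and 8.65% in NK/ILC, which were 53.5% of the cells. The level was 552 CPM (542 to 562) in T cells and 69.4 CPM (65.3 to 73.7) in NK/ILC, and no more than 5.32 CPM in monocytes and macrophages, DCs and pDCs. B cells had 20.7 CPM (4.28 to 60.6), which rested on 3 UMIs. T cells thus stood apart from NK/ILC and both from every myeloid class, whose intervals overlapped one another.

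In the ZsG+ library of the CD45 sort, 2139 Ifng UMIs were counted. T cells were 4.75% of its cells and held 51.8% of these UMIs (1107). Clusters that mixed genes of T cells or DCs with genes of macrophages were 6.65% of its cells and held 40.3% (862). Ifng was 375 CPM in the 95 of these cells with T cell genes and 1.53 CPM in the 179 with DC genes. Both kinds were left out of the T cell values given below. Monocytes and macrophages were 73.8% of the cells of this library and held 4.21% of its Ifng UMIs, at 2.57 CPM. Of cells thinned to 2000 UMIs each, 0.263% of ZsG+ monocytes and macrophages had an Ifng UMI (1.81% of unthinned cells; 3 cells under 2000 UMIs were left out), against 26.5% of ZsG+ T cells (44.4% unthinned). The median depth of these classes was 9489 and 6680 UMIs.

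**Figure D1:**
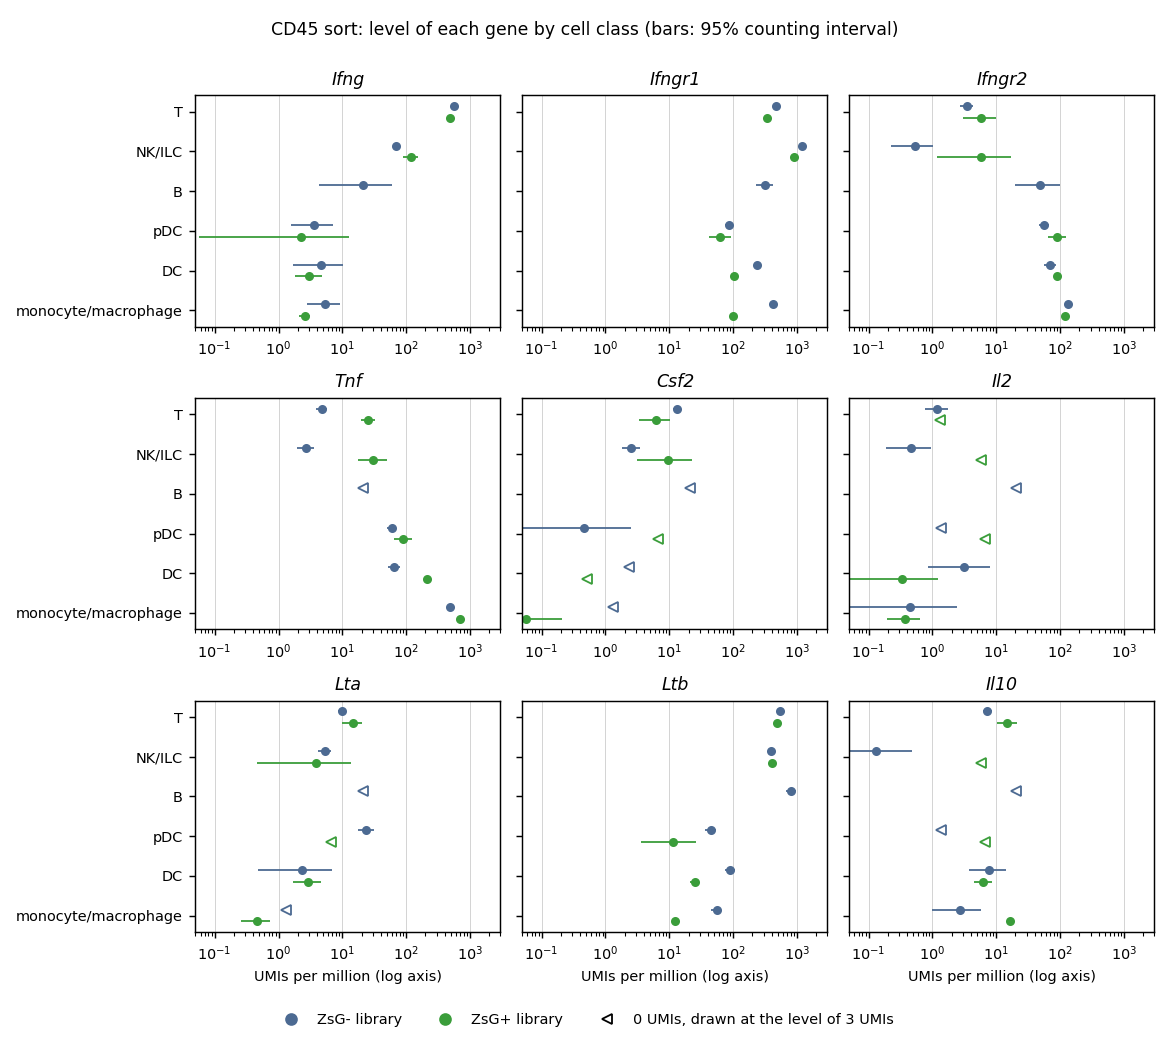
Level of each of the 9 genes (CPM, log axis) in the classes of the CD45 sort, with ZsG- in blue, ZsG+ in green and bars for the 95% Poisson interval; open triangles mark classes with 0 UMIs, drawn at the level of 3 UMIs. Ifng is highest in T cells, Ifngr1 in NK/ILC at 1217 and 899 CPM, and Ifngr2 and Tnf in monocytes and macrophages.

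A few cells held most Ifng. Of the 1528 ZsG- T cells of the CD45 sort, 18 cells held 50% of the Ifng UMIs, and 1 cell held 1717 UMIs, or 15.4% of them. Of the T cell sort, 2 of 651 ZsG- T cells and 7 of 727 ZsG+ T cells held 50%, and the top cells had 1162 and 1538 Ifng UMIs. In the ZsG+ cell with 1538 Ifng UMIs, these made up 11.2% of all UMIs of the cell, and in a ZsG+ cell with 1390 they made up 12.8%. NK/ILC were more even: 69 of 2516 ZsG- cells held 50% and the top cell had 83 UMIs.

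Among CD8 T cells (a UMI of Cd8a or Cd8b1 and none of Cd4 or Foxp3), 4.96% of the ZsG- cells of the T cell sort held 93.9% of the Ifng UMIs and 4.92% of the ZsG+ cells held 88.6%. Of the CD45 sort, 4.99% of the ZsG- CD8 T cells held 68.4% and 5% of the ZsG+ cells held 51.0%. The same shares of cells held 14.8% to 17.1% of the UMIs of Ifngr1 and 17.2% to 20.1% of those of Ltb in the 4 libraries. Ifng was thus far more concentrated than both.

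**Figure D2:**
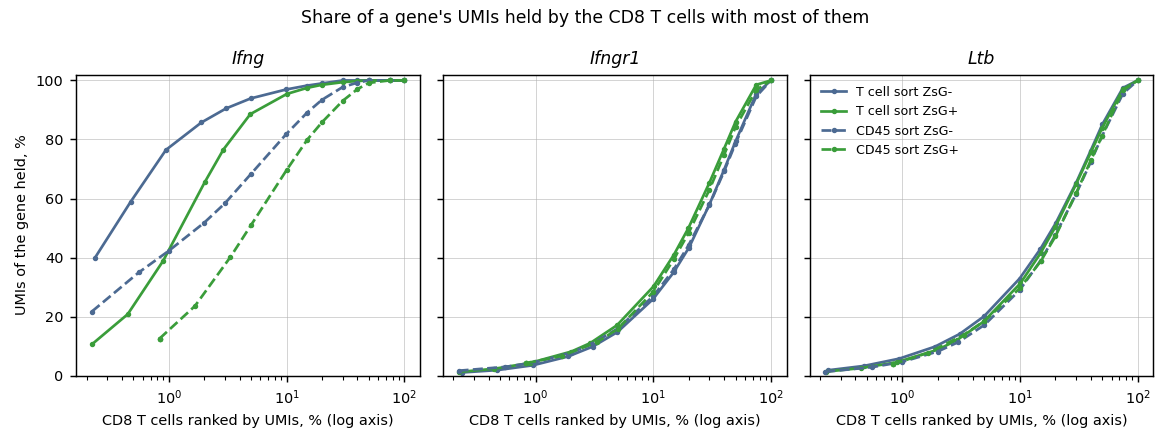
Share of the UMIs of Ifng, Ifngr1 and Ltb held by CD8 T cells, ranked by their UMIs of that gene (x, percent of CD8 T cells, log axis), in the T cell sort (solid) and the CD45 sort (dashed), ZsG- blue and ZsG+ green. The Ifng curves start high, with 76.5% of the UMIs in 0.946% of the ZsG- cells of the T cell sort, while those of Ifngr1 and Ltb climb slowly.

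ZsG+ T cells of the T cell sort had more Ifng than ZsG- T cells. The level was 653 CPM (3075 UMIs) in ZsG- and 2306 CPM (15066 UMIs) in ZsG+ T cells, a ratio of 3.53 (log2 1.82, 1.76 to 1.88). Most of this was in CD8 T cells, with 879 CPM in 423 ZsG- cells and 3297 CPM in 447 ZsG+ cells, a log2 ratio of 1.91 (1.85 to 1.97). After thinning to 2000 UMIs, 13.5% (10.4 to 17.2) of ZsG- and 28.5% (24.3 to 33.0) of ZsG+ CD8 T cells had an Ifng UMI, and unthinned the shares were 27.0% and 46.5% at median depths of 6384 and 7118 UMIs. Cells with 100 or more Ifng UMIs numbered 4 of 423 and 21 of 447, so the ZsG+ library had both more CD8 T cells with a UMI and more with very many. In the CD4 conventional T cells (Cd4, no Foxp3, Cd8a or Cd8b1) the ratio ran the other way, from 246 CPM (84 UMIs, 60 cells) to 72.8 CPM (12 UMIs, 40 cells), log2 -1.75 (-2.76 to -0.87). Without the 5% of cells richest in the gene the log2 ratio was -0.57. Foxp3+ T cells, the regulatory T cells, had 42.7 CPM and 57.2 CPM (log2 0.42, -0.49 to 1.45), and 33 of the 59 ZsG+ UMIs were in 1 cell.

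The clusters of the T cell sort show where these UMIs were. A cluster of CD8 T cells led by Xcl1 and Ccl3, which are chemokines of activated T cells, held 74.3% of the Ifng UMIs of ZsG- T cells in 35 cells and 87.4% of those of ZsG+ T cells in 93 cells. Its level was 5255 CPM in ZsG- and 10227 CPM in ZsG+ cells (log2 0.96, 0.90 to 1.03). The top cell of each library held 1162 and 1538 of these UMIs, and without both cells the levels were 2661 and 9130 CPM (log2 1.78). Other clusters varied. Exhausted-like CD8 T cells (Havcr2, Pdcd1) had 486 and 260 CPM (log2 -0.90, -1.26 to -0.55), with 75 of the 128 ZsG- UMIs in 1 cell. Effector memory-like cells with Gzmk had 84.0 and 247 CPM (log2 1.56, 0.85 to 2.32), and those with Gzmm had 148 and 128 CPM (log2 -0.21, -0.68 to 0.25). Without the top cell of each library these log2 values were -0.15, 1.63 and 0.21 in the same order. The lower ZsG+ level in exhausted-like cells thus came mostly from 1 cell, and the Gzmm value changed sign. The log2 ratio over all T cells, 1.82, was 0.97 without the Xcl1 and Ccl3 cluster. It was 0.86 when clusters were given the same weight in both libraries. Cells with 2 or more UMIs of the 5 macrophage genes were 3.38% of ZsG- and 11.1% of ZsG+ T cells. Without them the log2 ratio was 1.52.

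In regulatory-like cells with Areg the size of the ratio came mostly from 1 cell. They had 11.2 CPM of Ifng in 30 ZsG- cells (2 UMIs) and 656 CPM in 91 ZsG+ cells (376 UMIs), of which 349 were in 1 cell. Without the top cell of each library the levels were 5.77 and 49.9 CPM (log2 3.11), on few UMIs. Naive-like cells with Igfbp4 had the lowest levels, 2.33 and 10.7 CPM, on 1 and 2 UMIs.

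The T cells of the CD45 sort did not show the difference seen in the T cell sort. Ifng was 552 CPM in ZsG- and 485 CPM in ZsG+ T cells, log2 -0.19 (-0.28 to -0.10), and 707 and 649 CPM in CD8 T cells, log2 -0.12 (-0.21 to -0.03). Here the shares of thinned CD8 T cells with a UMI went the other way, 24.1% in 900 ZsG- cells and 35.0% in 120 ZsG+ cells (49.1% and 57.5% unthinned), and the CD8 log2 ratio was 0.25 when each cell had equal weight, so no order is read from this pair. 85.7% of these ZsG+ T cells had 2 or more UMIs of the macrophage genes. In the 28 that did not, the log2 ratio over all T cells was -1.53. By cluster, T cells with Cxcr6 and Cd8a had 889 and 664 CPM, cycling T cells 654 and 641 CPM, and T cells with Klra6 and Nsg2 18.1 and 37.5 CPM.

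NK/ILC had 69.4 CPM of Ifng in ZsG- and 117 CPM (89.6 to 151, 61 UMIs) in ZsG+ cells, log2 0.75 (0.36 to 1.13). With a stricter limit of 5% mitochondrial UMIs the value was -0.31, so the direction rests on the filter. Among the ZsG- clusters, cycling NK cells with Gzmc had 126 CPM, cells with Gzma and Itga2 93.1 CPM, cells with Gzmc 66.3 CPM and cells with Ret and Rab27b 31.5 CPM. The lowest and the highest of these differed beyond their counting intervals.

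The receptor chains had different homes. Ifngr1, the chain that binds the cytokine, was highest in NK/ILC, at 1217 CPM (1199 to 1234) in ZsG- cells, followed by T cells at 469 CPM, monocytes and macrophages at 419 CPM, B cells at 311 CPM, DCs at 234 CPM and pDCs at 86.0 CPM. B cells and DCs, with intervals of 227 to 416 and 209 to 262 CPM, overlapped, while the other neighbors in this order did not, except that B cells also reached monocytes and macrophages (393 to 447 CPM). After thinning, 88.1% of NK/ILC, 68.2% of T cells, 51.0% of monocytes and macrophages and 9.96% of pDCs had a UMI (98.8%, 95.9%, 89.1% and 24.1% unthinned).

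Ifngr2, the signaling partner, was lowest in NK/ILC and T cells, which had the most Ifngr1, and highest in monocytes and macrophages. It was 133 CPM (119 to 149) in ZsG- monocytes and macrophages, 69.8 CPM in DCs, 55.5 CPM in pDCs and 48.4 CPM in B cells (7 UMIs), but 3.46 CPM in T cells and 0.524 CPM in NK/ILC. The 2516 ZsG- NK/ILC, the richest in Ifngr1, held 8 UMIs of Ifngr2. The intervals of DCs, pDCs and B cells overlapped, and T cells (2.70 to 4.38) and NK/ILC (0.226 to 1.03) did not. After thinning, 18.3% of monocytes and macrophages, 1.57% of T cells and 0.12% of NK/ILC had a UMI (66.9%, 3.8% and 0.318% unthinned). The macrophage genes stood at 50.3 CPM in these T cells and at 38.9 CPM in these NK/ILC, and whether the few Ifngr2 UMIs came from the lymphocytes themselves was not tested. The receptor-associated kinases were more widely present in ZsG- cells: Jak1 ran from 143 CPM in pDCs to 647 CPM in NK/ILC, and Jak2 ran from 29.0 CPM in T cells to 120 CPM in DCs.

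Within T cells, Ifngr2 was highest in naive-like cells of the T cell sort. There it was 51.3 CPM (32.2 to 77.7) in ZsG- and 58.9 CPM (29.4 to 105) in ZsG+ naive-like cells with Igfbp4, against 8.28 CPM and 6.12 CPM over all T cells. ZsG- T cells of the CD45 sort with Klra6 and Nsg2 had 11 CPM, those with Cxcr6 and Cd8a 2.46 CPM and cycling T cells 0.592 CPM.

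Cells with much Ifng had little Ifngr1. In ZsG- CD8 T cells of the T cell sort, Ifngr1 was 787 CPM (749 to 826) in 309 cells with no Ifng UMI, 525 CPM in 94 cells with 1 to 9, 145 CPM in 16 cells with 10 to 99, and 20.5 CPM (2 UMIs) in 4 cells with 100 or more. In ZsG+ CD8 T cells of that sort the levels were 580, 361, 66.3 and 30.5 CPM in 239, 142, 45 and 21 cells. The ZsG- and ZsG+ CD8 T cells of the CD45 sort went from 666 to 77.5 CPM and from 719 to 0 CPM (0 UMIs in 3 cells, upper bound 56.8 CPM). All 4 libraries thus had the same order over the bins. Cells with more Ifng UMIs were also deeper, with medians of 6046 and 23394 UMIs in the lowest and highest bin of ZsG- and 5871 and 17495 UMIs in those of ZsG+ cells of the T cell sort, and the bins are cells of 1 library each, not replicates.

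**Figure D3:**
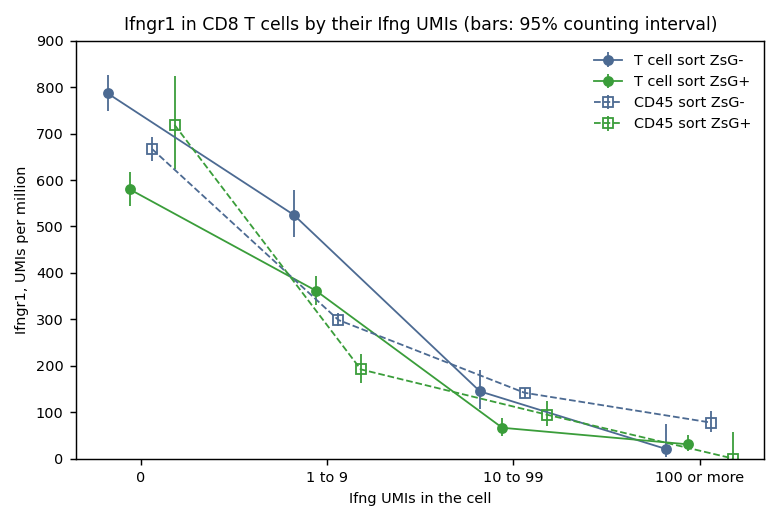
Ifngr1 (CPM, linear axis, 95% Poisson bars) in CD8 T cells grouped by their own Ifng UMIs (0, 1 to 9, 10 to 99, 100 or more), 1 line per library. Every line descends, from 580 to 787 CPM at 0 Ifng UMIs to at most 77.5 CPM at 100 or more.

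At equal depth the shares were compared over all T cells, not CD8 T cells alone, and differed beyond counting error in 2 of 3 libraries. All T cells include clusters with little Ifng and much Ifngr1, given below, so these shares do not check the CD8 result. The part of the T cell subsets in this difference was not tested. Of T cells thinned to 2000 UMIs, Ifngr1 was detected in 61.0% (49.2 to 72.0) of the 77 ZsG- cells with an Ifng UMI and in 74.8% (71.0 to 78.3) of the 568 cells without one in the T cell sort, and these intervals overlap. In ZsG+ cells the shares were 40.8% (32.9 to 49.0) of 152 and 65.8% (61.7 to 69.8) of 559, and in ZsG- T cells of the CD45 sort 40.2% (34.1 to 46.6) of 251 and 73.8% (71.3 to 76.2) of 1273, without overlap. Ltb was detected in 50.2% (43.8 to 56.5) against 68.3% (65.7 to 70.9) of the latter cells. In the T cell sort its shares were 53.2% (41.5 to 64.7) against 64.1% (60.0 to 68.0) in ZsG- and 55.9% (47.6 to 64.0) against 66.2% (62.1 to 70.1) in ZsG+ cells, with intervals that overlap.

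The T cell clusters are another grouping of the same T cells and so are no separate evidence. The Xcl1 and Ccl3 cluster, the richest in Ifng, had the least Ifngr1, 98.9 CPM in ZsG- and 73.0 CPM in ZsG+ cells. The most was found in T cells led by Tcrg-C4 and Rbpms (1236 and 1157 CPM), in T cells led by Klra1 and Klra6 (1051 and 942 CPM) and in regulatory-like cells with Areg (1054 and 1017 CPM). The first and second of these had at most 57.3 CPM of Ifng, and the Areg cells had 11.2 CPM in ZsG- cells and, through 1 cell, 656 CPM in ZsG+ cells. Other T cell clusters broke the order. ZsG+ cycling regulatory-like cells had 54.1 CPM of Ifng and only 311 CPM of Ifngr1. ZsG- effector memory-like cells with Gzma had 343 CPM of Ifng and 882 CPM of Ifngr1. Among NK/ILC of the CD45 sort, Ifngr1 was 1823 CPM in ZsG- cells with Ret and Rab27b, 1376 CPM in those with Gzma and Itga2, 657 CPM in those with Gzmc and 461 CPM in cycling cells with Gzmc. These NK/ILC clusters did not follow the order throughout. Those with Gzma and Itga2 had more Ifng than those with Gzmc, as given above, and also more Ifngr1.

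**Figure D4:**
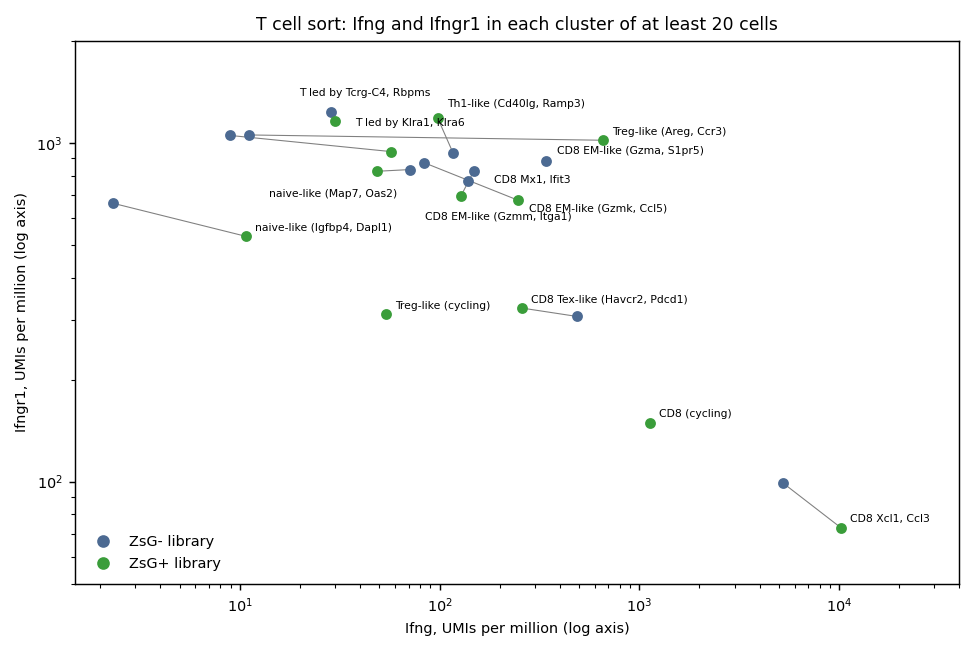
Ifng against Ifngr1 (CPM, log axes) in the T cell clusters of the T cell sort with at least 20 cells, ZsG- blue and ZsG+ green, with lines that join the same cluster in both libraries. The cluster led by Xcl1 and Ccl3 sits at the lower right, at 5255 and 10227 CPM of Ifng. The clusters with under 100 CPM of Ifng lie above 300 CPM of Ifngr1, with the cycling regulatory-like cells the lowest of them at 311 CPM.

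Between the libraries, Ifngr1 was lower in most ZsG+ classes. It was 723 CPM in ZsG- and 473 CPM in ZsG+ T cells, log2 -0.61 (-0.68 to -0.54), and 635 and 355 CPM in CD8 T cells, log2 -0.84 (-0.93 to -0.74), in the T cell sort. The CD8 value was -0.29 when clusters had the same weight in both libraries. In CD4 conventional T cells it was higher in the ZsG+ library, 766 and 1044 CPM, log2 0.45 (0.16 to 0.73), and in Foxp3+ T cells 775 and 646 CPM, log2 -0.26 (-0.48 to -0.03). The log2 ratio in the CD45 sort was -0.46 in T cells (469 and 341 CPM) and -0.44 (-0.57 to -0.30) in NK/ILC (1217 and 899 CPM).

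The widest gap in Ifngr1 was in myeloid cells. Monocytes and macrophages had 419 CPM in ZsG- and 99.4 CPM in ZsG+ cells, log2 -2.08 (-2.18 to -1.97), and DCs 234 and 104 CPM, log2 -1.18 (-1.38 to -0.97). Different clusters made up these classes in the 2 libraries: most ZsG- monocytes and macrophages were in the cluster with Ace and Treml4, most ZsG+ ones in that with Ms4a7 and C1qa, and most ZsG- DCs in the unnamed cluster led by Hpgd (296 CPM of Ifngr1). Without that cluster, DCs had 164 CPM in 48 ZsG- and 104 CPM in 407 ZsG+ cells, log2 -0.66 (-0.96 to -0.33). Within clusters of monocytes found in both libraries the gap was smaller: 138 and 118 CPM (log2 -0.22) in those with Vcan and Chil3, and 516 and 438 CPM (log2 -0.24) in those with Ace and Treml4. The macrophages of the ZsG+ library had 99.8 CPM in the cluster with Ms4a7 and C1qa and 81.5 CPM in that with Nos2 and Mmp12, and clusters of both kinds had under 20 cells in the ZsG- library. Ifngr2 had no such gap, with 133 and 118 CPM (log2 -0.18, -0.35 to -0.01) in monocytes and macrophages and 69.8 and 90.0 CPM (log2 0.37, 0.04 to 0.70) in DCs, or 51.4 and 91.0 CPM (log2 0.82, 0.30 to 1.40) without the Hpgd cluster. Its direction in monocytes and macrophages was the opposite in both shared clusters, 0.41 and 0.46. ZsG- monocytes, macrophages and DCs also carried more lymphocyte transcripts, and the part of lymphocyte RNA in their Ifngr1 was not tested.

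Tnf came from myeloid cells. In the ZsG- library of the CD45 sort, monocytes and macrophages held 74.6% of 1454 Tnf UMIs, and in the ZsG+ library 87.1% of 28363. Their level was 481 CPM (452 to 510) in ZsG- and 704 CPM (696 to 713) in ZsG+ cells, log2 0.55 (0.46 to 0.64), and 48.2% and 60.1% of thinned cells had a UMI (73.2% and 86.8% unthinned). By cluster, those with Vcan and Chil3 had 890 and 973 CPM (log2 0.13) and those with Ace and Treml4 346 and 234 CPM (log2 -0.57), so the ratio differed in direction between the 2 clusters found in both libraries. DCs had 65.2 and 212 CPM, log2 1.70 (1.38 to 2.04), and pDCs 59.2 and 90.1 CPM. Without the Hpgd cluster the DC value was 4.69 (3.46 to 6.32) on 5 and 1202 UMIs. It set 48 ZsG- cells, 28 of them DC1-like, against 407 ZsG+ cells, 198 of them DC2-like. ZsG+ DCs and pDCs also carried more macrophage transcripts. C1qa was 0 CPM in ZsG- and 380 CPM in ZsG+ DCs, and 0.455 and 160 CPM in pDCs. The part of macrophage RNA in their Tnf was not tested.

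Tnf in lymphocytes was low. In the CD45 sort both Tnf and the macrophage genes were higher in lymphocytes of the ZsG+ library. T cells had 4.75 CPM (96 UMIs) in ZsG- and 25.4 CPM (58 UMIs) in ZsG+ cells, log2 2.42 (1.92 to 2.90), and NK/ILC 2.69 CPM (41 UMIs) and 30.7 CPM (16 UMIs), log2 3.52 (2.58 to 4.38). In these cells the macrophage genes went from 50.3 to 393 CPM and from 38.9 to 670 CPM. There were 6.46 Tnf UMIs per 100 macrophage-gene UMIs in the ZsG+ T cells and 4.58 in the ZsG+ NK/ILC, beside 3.99 in the ZsG+ monocytes and macrophages themselves. In the ZsG- library these values were 9.44, 6.90 and 1.94, and in T cells of the T cell sort they were 44.3 in ZsG- and 10.8 in ZsG+ cells. In the 28 ZsG+ T cells with fewer than 2 macrophage-gene UMIs the log2 ratio was 1.00, and in the 24 such NK/ILC it was 4.69; the part of macrophage RNA in these values was not tested. Tnf was 13.2 CPM (62 UMIs) and 13.6 CPM (89 UMIs) in T cells of the T cell sort, log2 0.05 (-0.43 to 0.54), and 24 of the 62 ZsG- UMIs were in 1 cell. The macrophage genes were 29.7 CPM in these ZsG- and 127 CPM in these ZsG+ T cells. Clusters left out for mixing genes of T cells and macrophages had 312 CPM in the CD45 sort and 320 CPM in the T cell sort.

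Lta, which is made by activated lymphocytes, was sparse. In the CD45 sort it was 10.0 CPM (202 UMIs) in ZsG- and 14.5 CPM (33 UMIs) in ZsG+ T cells, log2 0.53 (-0.05 to 1.07), and 0 and 0.456 CPM in monocytes and macrophages. ZsG- pDCs had 23.7 CPM (52 UMIs) and ZsG+ pDCs had 0 UMIs (upper bound 8.31 CPM). T cells of the T cell sort had 18.5 CPM (87 UMIs) and 27.7 CPM (181 UMIs), log2 0.58 (0.21 to 0.97), and CD8 T cells 15.4 and 35.5 CPM, log2 1.2 (0.74 to 1.69). The CD8 value was 0.46 when clusters had the same weight in both libraries. CD4 conventional T cells had 24 and 2 UMIs, log2 -2.53 (-5.66 to -0.52), of which 19 were in 1 ZsG- cell, and with a limit of 5% mitochondrial UMIs the value was 0.42.

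In the T cell sort, Lta was higher in CD8 T cells with 10 or more Ifng UMIs. Over the 4 bins of Ifng UMIs it was 7.26, 9.91, 29.5 and 185 CPM in ZsG- and 7.39, 17.4, 44.6 and 179 CPM in ZsG+ CD8 T cells of the T cell sort, 5.76, 6.73, 16.6 and 20.2 CPM in ZsG- CD8 T cells of the CD45 sort, and 10.6, 8.90, 18.5 and 30.8 CPM in its ZsG+ cells. The top bins held 18, 82, 13 and 2 Lta UMIs, of which 14 and 47 in the T cell sort were in 1 cell each. Without the cell richest in Lta, the upper 2 bins of the T cell sort were 26.4 and 55.7 CPM in ZsG- and 31.7 and 85.8 CPM in ZsG+ cells. In the CD45 sort they were 8.53 and 11.6 CPM in ZsG- cells, and 12.1 and 0 CPM in ZsG+ cells. In thinned ZsG+ T cells of the T cell sort, Lta was detected in 7.24% (3.67 to 12.6) of cells with an Ifng UMI and in 1.25% (0.505 to 2.56) of those without. The intervals overlapped in its ZsG- T cells, 3.90% (0.811 to 11) and 1.94% (0.971 to 3.44), and in ZsG- T cells of the CD45 sort, 1.99% (0.65 to 4.59) and 1.41% (0.84 to 2.23).

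Ltb was found in every lymphocyte class. In ZsG- cells of the CD45 sort it was 816 CPM (675 to 977) in B cells, 534 CPM in T cells and 390 CPM in NK/ILC, and 20 gamma-delta-like T cells with Cd163l1 and Il17a had 1590 CPM. It was 626 CPM in ZsG- and 616 CPM in ZsG+ T cells of the T cell sort, log2 -0.02 (-0.09 to 0.05), and highest in regulatory-like cells with Areg, at 1395 and 1511 CPM. Its log2 ratio was -0.18 in CD8 T cells of that sort, -0.13 in T cells and 0.08 in NK/ILC of the CD45 sort. Like Ifngr1, Ltb was lower in CD8 T cells with more Ifng, from 617 to 215 CPM in ZsG- and from 611 to 137 CPM in ZsG+ cells of the T cell sort, and it was low in the Xcl1 and Ccl3 cluster, at 251 and 340 CPM. In myeloid cells it was low and lower in the ZsG+ library, with 54.9 and 12.5 CPM in monocytes and macrophages (log2 -2.14, -2.43 to -1.84) and 89.2 and 24.9 CPM in DCs (log2 -1.84, -2.20 to -1.47), or 61.3 and 24.4 CPM (log2 -1.33, -1.86 to -0.76) without the Hpgd cluster. ZsG- myeloid cells also carried more lymphocyte transcripts, and the part of lymphocyte RNA in these values was not tested.

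In the T cell sort, Csf2 and Il2 rested on few cells. Csf2 was 8.71 CPM (41 UMIs) in ZsG- and 36.6 CPM (239 UMIs) in ZsG+ T cells, log2 2.07 (1.59 to 2.59), but 35 of the 41 and 103 of the 239 UMIs were in 1 cycling CD8 T cell each. Only 2 of the 651 ZsG- T cells had a Csf2 UMI. Without the top cells the value was 4.03, which rests on 6 ZsG- UMIs in 1 CD4 conventional T cell, so its size cannot be read. In the CD45 sort it was 13.1 CPM (265 UMIs) and 6.13 CPM (14 UMIs) in T cells, log2 -1.10 (-1.99 to -0.32), and the top ZsG- cell held 45 of the 265. Myeloid classes held next to none, with 0 UMIs in the 110 ZsG- and 441 ZsG+ DCs and 2 UMIs in 3043 ZsG+ monocytes and macrophages. Csf2 was also 2.55 CPM (39 UMIs) and 9.60 CPM (5 UMIs) in NK/ILC, log2 1.91 (0.21 to 3.25), which became -0.01 with the limit of 5% mitochondrial UMIs.

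Il2 in the T cell sort was 45.0 CPM (212 UMIs) in ZsG- and 14.7 CPM (96 UMIs) in ZsG+ T cells, log2 -1.62 (-1.98 to -1.26). Of these, 191 UMIs were in 1 ZsG- cell, the one with 1162 Ifng UMIs, and 67 were in 1 ZsG+ cell with 346 Ifng UMIs. Without both cells the log2 ratio was -0.01 in T cells and 0.10 in CD8 T cells. Of the CD45 sort, ZsG- T cells had 24 Il2 UMIs (1.19 CPM) and ZsG+ T cells 0 (upper bound 1.62 CPM), and Foxp3+ T cells of the T cell sort had 0 UMIs in both libraries. Il2ra, a chain of the Il2 receptor, was 72.2 and 143 CPM in T cells of the T cell sort, log2 0.98 (0.80 to 1.17).

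Il10 had lymphoid and myeloid sources. In the ZsG- library of the CD45 sort 89.1% of 165 UMIs were in T cells, and in the ZsG+ library 74.7% of 766 were in monocytes and macrophages. In T cells its level was highest in regulatory cells. Foxp3+ T cells of the T cell sort had 71.1 CPM (20 UMIs) in ZsG- and 106 CPM (109 UMIs) in ZsG+ cells, log2 0.57 (-0.13 to 1.34), and regulatory-like cells with Areg 66.9 and 166 CPM, log2 1.31 (0.44 to 2.31). Foxp3+ T cells held 20 of the 40 ZsG- and 109 of the 198 ZsG+ UMIs of T cells, and the rest lay in other T cells. Over all T cells of that sort it was 8.49 CPM (40 UMIs) and 30.3 CPM (198 UMIs), log2 1.83 (1.34 to 2.36), and 0.71 when clusters had the same weight in both libraries. CD8 T cells had 2.72 CPM (9 UMIs) and 11.9 CPM (52 UMIs), log2 2.13 (1.10 to 3.34). T cells of the CD45 sort had 7.27 and 14.9 CPM, log2 1.03 (0.45 to 1.58), which was 0.44 without cells with macrophage-gene UMIs. Its regulatory-like cluster held 107 of these 147 ZsG- and 22 of these 34 ZsG+ UMIs. Within that cluster Il10 was not higher in ZsG+ cells, at 65.3 CPM (53.5 to 78.9) in 80 ZsG- and 58.1 CPM (36.4 to 87.9) in 24 ZsG+ cells. CD8 T cells of the CD45 sort had 2.54 and 7.17 CPM, with 7 of the 12 ZsG+ UMIs in 1 cell.

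In monocytes and macrophages Il10 was 2.66 CPM (6 UMIs) in ZsG- and 16.3 CPM (572 UMIs) in ZsG+ cells, log2 2.62 (1.49 to 4.07). Within the cluster with Vcan and Chil3 alone the log2 ratio was 0.84. The ZsG+ macrophages with Nos2 and Mmp12 had 30.0 CPM (25.4 to 35.2) and those with Ms4a7 and C1qa 13.9 CPM (12.4 to 15.5), which differed beyond counting error.

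Counted over the 9 members, a gene was called where the level differed at least 2-fold and both libraries together held at least 20 UMIs. In T cells of the T cell sort 9 members could be called, of which 3 were higher in ZsG+ cells (Ifng, Csf2, Il10) and 1 lower (Il2), beside 4.08% of all 9961 genes higher and 1.88% lower. In CD8 T cells 4 of 9 were higher (Lta in addition) and 1 lower, beside 3.54% and 2.13%. All 35 ZsG- UMIs behind the Csf2 call in CD8 T cells were in 1 cell. In CD4 conventional T cells 0 of 4 were higher and 2 lower (Ifng, Lta), beside 2.79% and 6.04%, and in Foxp3+ T cells 1 of 5 was higher (Tnf, 2 and 23 UMIs) and 0 lower, beside 6.47% and 3.42%.

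In the CD45 sort, 2 of 9 members were higher (Tnf, Il10) and 1 lower (Csf2) in T cells, beside 3% and 3.9% of all genes. Il2, at 24 and 0 UMIs, is counted among the 9 but could not be called lower at this depth, since the level of 3 UMIs in the ZsG+ cells lies above its ZsG- level. In CD8 T cells of this sort 3 of 8 were higher (Tnf, Il10 and, on 41 and 9 UMIs, Ifngr2 at log2 1.01, -0.21 to 2.08) and 0 lower, beside 2.54% and 4.06%. In NK/ILC 2 of 6 were higher (Tnf, Csf2) and 0 lower, beside 5.89% and 5.15%. In monocytes and macrophages 1 of 6 was higher (Il10) and 3 were lower (Ifng, Ifngr1, Ltb), beside 13.9% and 12.6%, and in DCs 1 of 7 was higher (Tnf) and 2 were lower (Ifngr1, Ltb), beside 9.52% and 4.59%. Without the Hpgd cluster, Ifngr1 in DCs was no longer 2-fold lower, while Il10 was (log2 -1.18, -2.26 to 0.06). That Il10 value rests on 9 ZsG- UMIs, all in 1 cell, and 37 ZsG+ UMIs. The part of lymphocyte RNA in the members called lower in these myeloid classes was not tested. The median log2 ratio of the members was 0.05 in T cells of the T cell sort, where that of all genes was 0.04, and -0.62 in monocytes and macrophages, where that of all genes was 0.

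**Figure D5:**
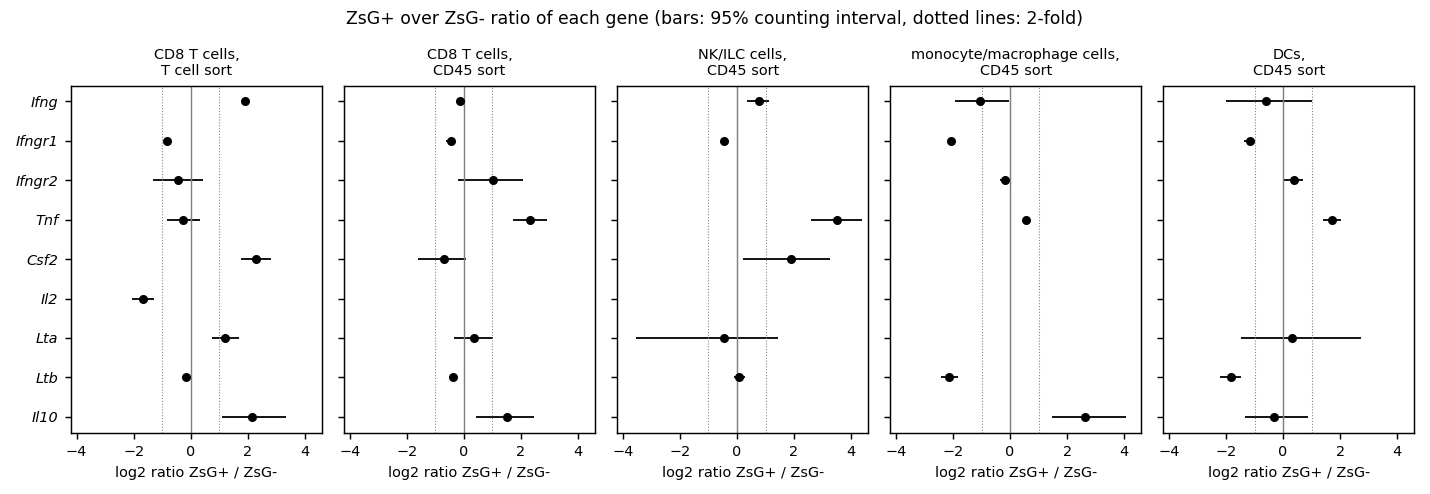
Log2 ratio of ZsG+ over ZsG- for the members in CD8 T cells of each sort, NK/ILC, monocytes and macrophages, and DCs, with 95% conditional intervals for counting error; genes with under 20 UMIs over both libraries are not drawn and dotted lines mark 2-fold. Ifng stands at 1.91 in CD8 T cells of the T cell sort and at -0.12 in those of the CD45 sort, and Ifngr1 lies below 0 in all 5 classes; the DCs drawn include the unnamed cluster led by Hpgd.

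Few of the genes that carry or answer the interferon gamma signal passed 2-fold in the T cell sort. Of a list of 14 such genes 12 could be called in T cells, of which 0 were 2-fold higher and 1 was lower, near the 4.08% and 1.88% of all genes. The median log2 ratio was -0.44 against 0.04 for all genes. The lower gene was the chemokine Cxcl10, at 178 and 78.7 CPM (log2 -1.18, -1.34 to -1.02), followed by the GTPase Gbp2 at 121 and 72.1 CPM (log2 -0.74). The highest ratios were those of the transcription factor Irf8, at 126 and 201 CPM (log2 0.67), and of Cxcl9, at 3.19 and 4.90 CPM (log2 0.62, -0.31 to 1.61). Jak1 was 409 and 268 CPM (log2 -0.61).

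Of 15 listed regulators of Ifng 12 could be called in the T cell sort and 0 were called in either direction, with a median of -0.15. At the shares of all genes given above, 0 of 12 is near the background. The ends of the list were Il12rb1, a receptor chain for Il12, at 11.7 and 21.4 CPM (log2 0.88), and Zfp36l2, which destabilizes messenger RNA, at 574 and 370 CPM (log2 -0.63), with Batf at 0.31 and Stat4 at -0.54 next to them. Of 12 receptors of the other members 8 could be called and 0 were called, with a median of -0.17, from 0.98 for Il2ra and 0.39 for Tnfrsf1b to -0.28 for Il10ra and -0.27 for Il10rb.

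Among 17 other cytokines and effector ligands, 9 could be called in the T cell sort, with a median of 0.28 against 0.04 for all genes. Of these, 3 were higher in ZsG+ T cells and 0 lower, beside 4.08% and 1.88% of all genes. The 3 were the chemokines Xcl1 (350 and 2594 CPM, log2 2.89), Ccl3 (464 and 1547 CPM, log2 1.74) and Ccl4 (1116 and 2407 CPM, log2 1.11), and all 3 also lead the cluster that held most Ifng and are therefore no separate evidence about it. Cd40lg (log2 -0.81) and Ccl5 (6066 and 3758 CPM, log2 -0.69) were at the low end.

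In monocytes and macrophages, the class with the most Ifngr2, 13 genes of the interferon gamma list could be called. Of these 1 was higher in ZsG+ cells, Cxcl9 at 939 and 1944 CPM (log2 1.05), and 3 were lower: Cxcl10 at 6276 and 2149 CPM (log2 -1.55), Irf1 at 1401 and 499 CPM (log2 -1.49) and Socs1, an inhibitor of the pathway, at 354 and 131 CPM (log2 -1.43). The list's median was -0.13, and 1 and 3 of 13 lie near the 13.9% higher and 12.6% lower of all genes in this class. Of the 12 receptors of the other members 1 was higher and 6 were lower, with a median of -1.10; Tnfrsf1a, a receptor of Tnf and Lta, was 355 and 137 CPM, and Csf2rb, the shared chain of the Csf2 receptor, 398 and 154 CPM. Of the 15 regulators of Ifng 1 was higher and 8 were lower. The lowest receptors were Il2rb and Tnfrsf1b, and the lowest regulators were Eomes, used here as a marker of NK/ILC, and Il18r1. As given above, different clusters made up this class in the 2 libraries, and its ZsG- cells carried more lymphocyte transcripts. The part of either in these lower values was not tested. Of the 17 other cytokines and ligands 8 could be called, with 3 higher and 2 lower. In NK/ILC the same lists had 1 higher and 0 lower of 12, 0 and 1 of 9, 2 and 1 of 14, and 0 and 0 of 8, near the 5.89% and 5.15% of all genes there.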

How the data were processed

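Single-cell RNA was sequenced from 4 sorted libraries. The deposited values are raw UMI counts per gene and barcode, which the authors made with Cell Ranger (6.1.2 in the labels; the file headers name 7.0.0 for the CD45 sort and 6.1.2 for the T cell sort) on mm10 and combined by sort. No source at hand says whether depth was evened when libraries were combined.

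Cells of the CD45 sort were kept with 1000 to 6000 genes and under 10% mitochondrial UMIs. Cells of the T cell sort were kept with at least 50 and under 6000 genes, under 15% mitochondrial UMIs and at least 0.055% of UMIs from CD3 genes. Cells were clustered with scanpy 1.11.5 (2000 variable genes without the members, 20 components, 20 neighbors, resolution 0.8 and 1.2) and named from markers. Scrublet called 1, 0, 8 and 5 cells, which is too few in the CD45 sort to be of use, so clusters that mixed genes of 2 classes (8, 274, 8 and 53 cells) were left out of the classes. UMIs were summed per class and library; ratios needed 20 UMIs over both libraries, and a gene was called at 2-fold. The code for ratios was checked on simulated data. Library depth was 10030971 to 56510578 UMIs, and intervals (scipy 1.17.1) cover counting error only.

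The members and gene lists were chosen with earlier results of these data known. From each list the 2 genes with the highest and the 2 with the lowest ratio in T cells of the T cell sort were named, and genes past 2-fold in monocytes and macrophages were named after their values were seen. Alternatives were other filters, TMM factors (edgeR 4.0.16, used for nothing else), other totals, other thinning, other UMI minima and leaving out single cells; those on single clusters (also DCs without 1 cluster), on clusters weighted alike and on the top 5% of cells were chosen after seeing the data. Samples were grouped by GEO's labels. The 2 namings of the T cell sort libraries disagree, as stated above.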

Additional observations from a re-analysis of the deposited data

Results flagged for a closer look

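Several members had ZsG+ to ZsG- ratios of opposite sign in 2 cell classes or sorts, with intervals on either side of 0, and none of these differences was tested, since each group is 1 library. In the T cell sort the log2 ratio of Ifng was 1.91 in CD8 and -1.75 in CD4 conventional T cells, that of Lta 1.2 and -2.53, and that of Ifngr1 -0.84 and 0.45, with -0.26 in Foxp3+ T cells. The CD4 conventional values rest on 60 and 40 cells, and the Lta value on 24 and 2 UMIs. Ifng in CD8 T cells stood at 1.91 in the T cell sort and at -0.12 in the CD45 sort, whose ZsG+ gate took bright cells. In the CD45 sort Ifng was -0.19 in T cells, 0.75 in NK/ILC and -1.05 in monocytes and macrophages, and Csf2 was -1.10 in T cells and 1.91 in NK/ILC (39 and 5 UMIs). Ifngr2 was -0.18 in monocytes and macrophages and 0.37 in DCs, or 0.82 in DCs without the unnamed cluster led by Hpgd. That cluster had T cell markers raised over the other cells of the cluster it was split from.

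Barcodes of the T cell sort under the CD3 limit, which no comparison used, also held members. In the 289 ZsG- cells the levels were 10.1 CPM for Ifng, 123 CPM for Ifngr1, 76.1 CPM for Ifngr2, 207 CPM for Tnf, 12.4 CPM for Lta, 42.1 CPM for Ltb and 1.31 CPM for Il10. In the 1099 ZsG+ cells they were 94.2 CPM for Ifng, 82.5 CPM for Ifngr1, 78.2 CPM for Ifngr2, 223 CPM for Tnf, 1.85 CPM for Il2, 18.7 CPM for Lta, 27.6 CPM for Ltb and 12.9 CPM for Il10. Lyz2, a gene of macrophages, was 5332 and 3328 CPM in these cells and Cd3e 4.25 and 3.05 CPM.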

How the results depend on the processing

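Of 574 ratios under another setting, 440 moved by less than their counting interval, 130 moved further, and 4 called values changed sign; TMM factors and totals without mitochondrial and ribosomal protein genes left 62 of 62 in place each, and a minimum of 1000 genes left 27 of 27. In the order mitochondrial limit of 5%, no cells with 2 or more macrophage-gene UMIs, no Xcl1 and Ccl3 cluster, mean of each cell's CPM, no top cell, thinned to 2000 UMIs, no top 5% of cells, and clusters weighted alike, the log2 ratio of Ifng in the T cell sort was 1.64, 1.52, 0.97, 1.99, 2.35, 1.99, 2.05 and 0.86 in T cells and 1.75, 1.59, 1.05, 2.19, 2.48, 2.17, 2.77 and 0.81 in CD8 T cells. Ifngr1 in these CD8 T cells was -0.98 with the 5% limit, -0.61 without that cluster, -0.61 by cell mean, -0.62 thinned and -0.29 with clusters weighted alike. Ifng in CD8 T cells of the CD45 sort was -0.26 with the 5% limit, -1.62 without cells with macrophage-gene UMIs (20 ZsG+ cells left), 0.25 by cell mean, 0.24 thinned and 0.51 without the top 5%. In NK/ILC, Ifng was -0.31 and Ifngr1 -0.22 with the 5% limit, and 0.30 and -0.59 without cells with macrophage-gene UMIs. In monocytes and macrophages, Ifngr1 was -0.22 and Tnf 0.13 in the Vcan and Chil3 cluster, -0.24 and -0.57 in the Ace and Treml4 cluster, and -2.21 and 0.74 without the top 5%; Tnf was 0.65 by cell mean and 0.65 thinned. The share of Ifng UMIs in lymphoid classes of the ZsG- library of the CD45 sort was 98.5% at resolution 0.5 and 99.7% in the main setting. In the ZsG+ library the main share was 54.6%. Leaving out the Hpgd cluster moved Ifngr1, Ifngr2, Tnf and Ltb in DCs, to -0.66, 0.82, 4.69 and -1.33. The sign turned for Il2 in CD8 T cells of the T cell sort without the top cell (0.10), Lta in CD4 conventional T cells (0.42) and Csf2 in NK/ILC (-0.0097) with the 5% limit, and Tnf in Foxp3+ T cells thinned (-0.18). The cause was not tested, beyond the cells each setting left out.

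The share of all genes past 2-fold moved in 24 of 32 cases; for T cells of the T cell sort it was 1.70% higher and 0.851% lower with at least 100 UMIs, and 7.23% and 5.65% with at least 1 UMI in each library. Of the shares of cells with a UMI, 87 of 104 moved with the thinning depth. No paired analysis was possible because each condition is 1 library. Depth limits Csf2, Il2, Lta, Il10 and lymphocyte Tnf and Ifngr2 most, since few UMIs or single cells carry them.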

Other observations

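The genes whose levels were most like a member's over 25 class and library points of the CD45 sort are given as a description; the points share 2 libraries, and depth and cell class move together across them. Ifng was most like B930095G15Rik (r = 0.95), Tox (0.95) and Thy1 (0.93), Ifngr1 most like Heca (0.95), Tnf most like Fcgr1 (0.98), Ltb most like Cd27 (0.96), Csf2 most like Ccdc148 (0.93), Il10 most like Glrx (0.84) and Lta most like Camk4 (0.79). Il2 had too few UMIs for this, and Ifngr2 is not reported here. Across the same 25 points Ifng and Ifngr1 had r = 0.56, while across 24 T cell cluster and library points of the T cell sort r was -0.71.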
